A study of Mus musculus with 96 samples.

Results

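The 37 genes examined here encode enzymes that make, decorate and break down sphingolipids in mouse brain: 14 of ceramide, sphingomyelin and sulfatide synthesis, 7 of ganglioside assembly, 8 of lysosomal breakdown (2 of them, Gm2a and Psap, encode activator proteins rather than enzymes), and 8 of other turnover, outside the lysosome or of sphingosine 1-phosphate. They were taken as a list of symbols, and a gene was measured by the transcript cluster that carried its symbol, or an older alias, and no other symbol. Of the 37, 36 had such a cluster among the 28310 clusters of the arrays. The remaining member, Cers1, lies only in a cluster that it shares with Gdf1 and was not analysed. For genes with several clusters, the brightest on average was taken.

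RNA came from 16 male mice aged 14 weeks, 8 of strain C57BL/6J (B6) and 8 of NOD/ShiLtJ (NOD), an inbred strain that develops autoimmune diabetes. In each strain, 4 mice were given 1 intraperitoneal injection of clozapine (Cloz), a drug of the atypical antipsychotic class, at 4 mg/kg. The other 4 were injected with vehicle (Veh). All were killed 3 hours later, so every brain had also been through an injection. The cerebellum was removed from each brain. For each mouse, forebrain and hindbrain came from the same hemisphere, whereas the sample called whole brain was the intact opposite hemisphere, so the 3 samples of a mouse are not independent. The 48 RNA samples were hybridised once to the Affymetrix 1.1ST peg format and once to the 1.0ST cartridge format. Values below are log2 intensities of the 1.1ST arrays, and the 1.0ST arrays are a technical repeat of the same RNA. The labels name neither the array batch nor the hemisphere of a sample, so no value within batches could be given.

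Sphingolipids are built on ceramide, a long-chain base joined to a fatty acid by one of several ceramide synthases. Ceramide receives a head group to become sphingomyelin, a glucose to enter the ganglioside pathway, or a galactose and then a sulfate to become the sulfatide of myelin. Gangliosides, which carry sialic acid, are abundant on neurons, while galactosylceramide, sulfatide and lipids with very long acyl chains are abundant in the myelin made by oligodendrocytes. In lysosomes a series of hydrolases, helped by the activator proteins, returns these lipids to sphingosine, and inherited loss of several of them causes storage diseases of the brain.

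Dissection was checked with markers. All 8 measured genes of telencephalic neurons were lower in hindbrain than in forebrain, and the mean over that list was 9.87 to 10.11 on the forebrain arrays and 7.52 to 8.83 on the hindbrain arrays. All 10 genes of brainstem neurons were higher in hindbrain, with list means of 5.63 to 7.17 in forebrain and 8.15 to 9.37 in hindbrain. The highest of these forebrain values, 7.17, came from mouse DD678, and the other forebrain arrays lay between 5.63 and 6.29. The forebrain array of mouse DD676 had a median over all clusters of 6.28, whereas the other 47 arrays had medians of 6.47 to 6.61. The whole brain array of mouse DD656 had a telencephalic list mean of 9.09, the lowest of its region. Some results are given with and without these arrays.

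Hindbrain differed from forebrain in most of the enzymes. By limma, 27 of 36 members were called at an FDR below 0.05, 20 higher and 7 lower in hindbrain, in a comparison that called 47.2% of all clusters, 27.5% higher and 19.7% lower. The median log2 difference was 0.11 over the members and 0.02 over all clusters. The groups of genes went in different directions. In synthesis 10 of 13 measured members rose and 1 fell (median 0.25), and the mean over the group was 8.63 to 8.79 on forebrain arrays and 8.90 to 9.08 on hindbrain arrays. In ganglioside assembly 1 of 7 rose and 5 fell (median -0.38), with means of 9.50 to 9.64 and 9.23 to 9.59. In lysosomal breakdown 3 of 8 rose and 5 were not called (median 0.04), with means of 9.51 to 9.73 and 9.67 to 9.93. These lysosomal means did not overlap in B6 (9.66 to 9.73 and 9.76 to 9.93) but did in NOD (9.51 to 9.72 and 9.67 to 9.78). In the other turnover group 6 of 8 rose and 1 fell (median 0.22), with means of 7.62 to 7.94 and 7.90 to 8.16. The group means are unadjusted, whereas the calls and median differences are fitted. As these are bulk samples, fewer cells of a type and less RNA per cell cannot be told apart. The call was made within each strain as well: 24 members in B6, against 39.9% of clusters, and 25 in NOD, against 40.9%. On the 1.0ST arrays, where 19.3% of clusters were called, 18 of 36 members passed, and all 18 had the direction seen on the 1.1ST arrays. A mixed model for each transcript called 27 members, against 48.6% of clusters.

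**Figure D1:**
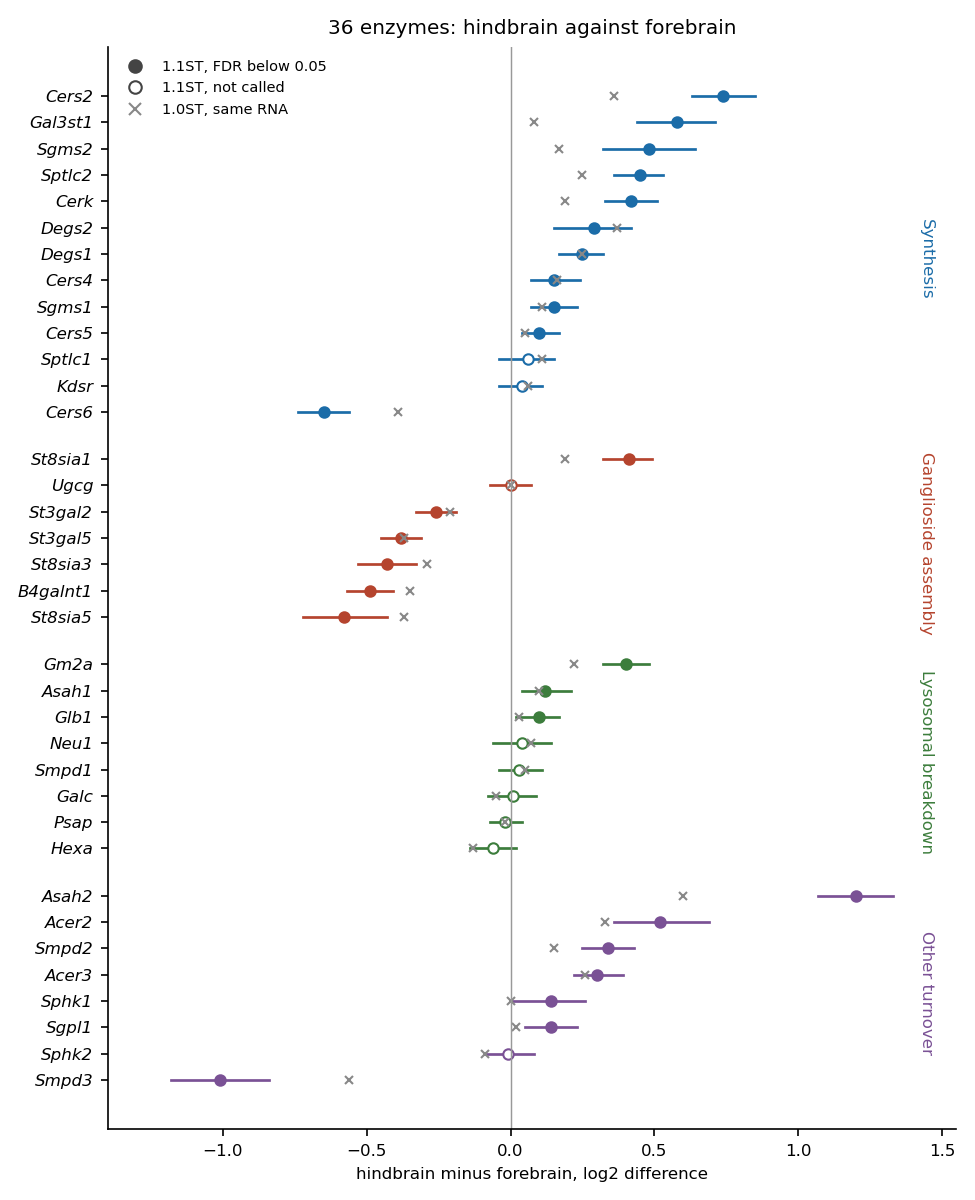
Log2 difference of hindbrain minus forebrain for the 36 measured enzymes, by group of the pathway. Circles are the limma estimates on the 1.1ST arrays with 95% confidence intervals (n = 16 mice), filled where the FDR is below 0.05, and crosses are the estimates on the 1.0ST arrays. Asah2 (1.20) and Cers2 (0.74) lie farthest to the right, Smpd3 (-1.01) and Cers6 (-0.65) farthest to the left, and 5 of the 7 ganglioside enzymes lie below 0.

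The largest rise was in Asah2, which encodes neutral ceramidase. Its value was 8.23 to 8.86 (median 8.46) over the 16 forebrain arrays, 8.77 to 9.82 (median 9.01) in whole brain and 9.57 to 10.18 (median 9.84) in hindbrain. Every hindbrain array lay above every forebrain array, and the fitted log2 difference was 1.20 (SE 0.07, FDR 2.16e-18), a 2.298-fold rise. Without a model, the log2 difference between the hindbrain and forebrain of the same mouse was 1.35 ± 0.19 (SD, n = 16 mice), and it was positive in 16 of 16 mice. On the 1.0ST arrays the fitted difference was 0.60 and the difference of means 1.23. The surrogate variables of the fit, which stand for unmeasured sources of variation, shared variance with region (R2 of 0.0428 to 0.202 on the 1.1ST arrays). A fitted difference can therefore be smaller than a difference of means. For the 1.0ST fit this R2 was not computed.

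Among the enzymes of ceramide synthesis, the ceramide synthases moved in opposite directions. Cers2, which makes ceramides with very long acyl chains, was 9.60 to 10.02 (median 9.78) in forebrain and 10.30 to 10.95 (median 10.63) in hindbrain. The groups did not overlap, and the log2 difference was 0.74 (SE 0.05, FDR 4.02e-15). Cers6, which makes ceramides with shorter, palmitate-type chains, was 10.03 to 10.27 (median 10.16) in forebrain, 9.59 to 10.14 (median 10.03) in whole brain and 9.22 to 9.77 (median 9.48) in hindbrain. Here every hindbrain array lay below every forebrain array, with a log2 difference of -0.65 (SE 0.05, FDR 6.11e-16). Both directions were seen in 16 of 16 mice and on the 1.0ST arrays (fitted values of 0.36 for Cers2 and -0.39 for Cers6). The unadjusted 1.0ST means in forebrain and hindbrain were 10.69 and 11.48 for Cers2 and 10.87 and 10.31 for Cers6. Cers4 and Cers5 rose by small amounts, 0.15 and 0.10, and neither was called on the 1.0ST arrays.

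The windows upstream of both genes are shown because they are the pair of synthases that went in opposite directions. They are the 250 bases before the annotated start in RefSeq (GRCm38.p6), 5′ to 3′ along the gene, with GC boxes (GGGCGG on either strand) and E-boxes (CACGTG) in capitals. Cers2 lies on the plus strand at chr3:95314940-95315189 (the first of 2 annotated starts), and Cers6 on the plus strand at chr2:68861191-68861440.
Cers2: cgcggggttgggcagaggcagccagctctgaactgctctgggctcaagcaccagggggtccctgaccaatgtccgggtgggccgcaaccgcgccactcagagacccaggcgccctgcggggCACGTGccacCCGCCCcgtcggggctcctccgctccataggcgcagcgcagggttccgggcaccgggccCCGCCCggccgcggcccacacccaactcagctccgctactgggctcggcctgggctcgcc
Cers6: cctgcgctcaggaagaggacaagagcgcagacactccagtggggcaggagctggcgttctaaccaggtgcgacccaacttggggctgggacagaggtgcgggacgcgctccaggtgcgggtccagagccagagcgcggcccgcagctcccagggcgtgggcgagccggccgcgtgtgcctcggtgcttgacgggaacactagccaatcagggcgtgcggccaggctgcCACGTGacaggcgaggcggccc
Both windows hold 1 E-box, which occurs in 6.02% of the 32851 windows of the table and in the first window of 5 of the 31 members with an entry (Cers2, Cers6, Degs1, Glb1 and Smpd2). B4galnt1, St3gal2, Asah1 and Smpd3 had no entry. St8sia3 and St8sia5 lie on a chromosome that was left out of the search for members. Whether they have an entry was therefore not determined, and the 31 do not count them. That chromosome was not left out of the 32851 windows. The window of Cers2 also holds 2 GC boxes, a motif in 32.7% of all windows and in 22 of the 31 members, and that of Cers6 holds none. A letter match is a description of these windows and no measure of binding. The same windows held ACAAAG, the core of SOX factor sites, in 1 of the 31 members against 16.5% of all windows.

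The other steps of synthesis rose less. Sptlc2, a catalytic subunit of serine palmitoyltransferase, which opens the pathway, was 9.19 to 9.74 (median 9.50) in forebrain and 9.82 to 10.31 (median 10.06) in hindbrain, without overlap (log2 difference 0.45, SE 0.04, FDR 1.3e-11). Its partner Sptlc1 was not called (0.06, 95% confidence interval -0.04 to 0.15), and neither was Kdsr, the reductase of the next step (0.04). Degs1, the desaturase that turns dihydroceramide into ceramide, rose by 0.25 (SE 0.04), and Degs2, a related desaturase and hydroxylase, by 0.29 (SE 0.07). Cerk, which phosphorylates ceramide, rose by 0.42 (SE 0.05) and separated the regions completely.

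Of the enzymes that add a head group, Gal3st1, the sulfotransferase that makes sulfatide, was 6.43 to 6.85 (median 6.59) in forebrain and 6.77 to 7.59 (median 7.25) in hindbrain (log2 difference 0.58, SE 0.07, FDR 1.45e-09). Sgms2, the sphingomyelin synthase of the plasma membrane, was 5.88 to 6.61 (median 6.29) in forebrain and 6.60 to 7.24 (median 7.04) in hindbrain (0.48, SE 0.08, FDR 2.85e-06). Both rose in 16 of 16 mice, their ranges met only at the edges, and neither was called on the 1.0ST arrays, where the fitted values were 0.08 and 0.17 and the differences of means 0.41 and 0.42. Sgms1, the Golgi sphingomyelin synthase, rose by 0.15 (SE 0.04).

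Markers of oligodendrocytes moved with these rises. All 12 measured genes of myelin and oligodendrocytes were higher in hindbrain (median log2 difference 0.75), among them Gjb1 (1.25), Aspa (0.96) and Mag (0.95), and the mean over the list was 9.32 to 9.87 in forebrain, 9.69 to 10.37 in whole brain and 10.28 to 10.66 in hindbrain. Astrocyte markers rose in 7 and fell in 3 of 10 (list mean 9.88 to 10.14 in forebrain and 10.19 to 10.42 in hindbrain), general neuronal markers rose in 5 and fell in 3 of 10 (11.03 to 11.29 and 11.28 to 11.48), and endothelial markers rose in 8 of 9 (8.08 to 8.76 and 8.52 to 9.13). Microglial markers fell in 7 of 10 (7.78 to 8.02 and 7.51 to 7.93), and choroid plexus markers rose in 1 and fell in 9 of 10 (6.76 to 7.87 and 6.09 to 8.51). The part of cell composition in the differences of the enzymes was not tested.

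In ganglioside assembly, the sialyltransferases and the branch enzyme B4galnt1 were lower in hindbrain, with the exception of St8sia1. B4galnt1, which adds N-acetylgalactosamine to start the complex gangliosides, was 9.50 to 9.95 (median 9.70) in forebrain and 8.97 to 9.49 (median 9.18) in hindbrain, and the groups did not overlap (log2 difference -0.49, SE 0.04, FDR 1.14e-13). St3gal5, which makes GM3, the first ganglioside of the series, was 9.77 to 10.07 (median 9.88) in forebrain and 9.37 to 9.67 (median 9.51) in hindbrain, also without overlap (-0.38, SE 0.04, FDR 1.18e-11). St8sia3, a sialyltransferase that joins sialic acids to each other, was 9.81 to 10.24 (median 10.04) in forebrain and 9.39 to 9.81 (median 9.54) in hindbrain (-0.43, SE 0.05, FDR 7.62e-10). These 3 genes fell in 16 of 16 mice. St3gal2, a sialyltransferase of the complex gangliosides, fell by 0.26 on the log2 scale (SE 0.04) and was lower in 15 of 16 mice. A second, dimmer cluster of B4galnt1 (mean 6.46) showed no call in any comparison.

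St8sia5, which adds sialic acid to the more complex gangliosides, was 9.54 to 10.24 (median 9.98) in forebrain and 9.08 to 10.51 (median 9.37) in hindbrain (log2 difference -0.58, SE 0.08, FDR 1.27e-08). The regions overlapped, and the highest hindbrain value, the 10.51 of mouse DD678, lay above every forebrain array. The call was lost when clusters with a mean of 5 or less were left out of the fit (-0.26), and it held without mouse DD678 (-0.48). It also held, at -0.33 to -0.37, without BB702, BB703, BB708 or DD656.

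St8sia1, which makes GD3 and opens the b-series of gangliosides, went the other way. It was 8.55 to 8.93 (median 8.72) in forebrain, 8.78 to 9.21 (median 8.94) in whole brain and 9.15 to 9.47 (median 9.28) in hindbrain. All hindbrain arrays lay above all forebrain arrays (log2 difference 0.41, SE 0.04, FDR 7.62e-11), and the paired difference varied little between mice (0.56 ± 0.07, SD, n = 16 mice). Ugcg, which commits ceramide to the pathway by adding glucose, did not pass the test (0.00, 95% confidence interval -0.08 to 0.08), and after each array was centred on its median it was called lower (-0.06).

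**Figure D2:**
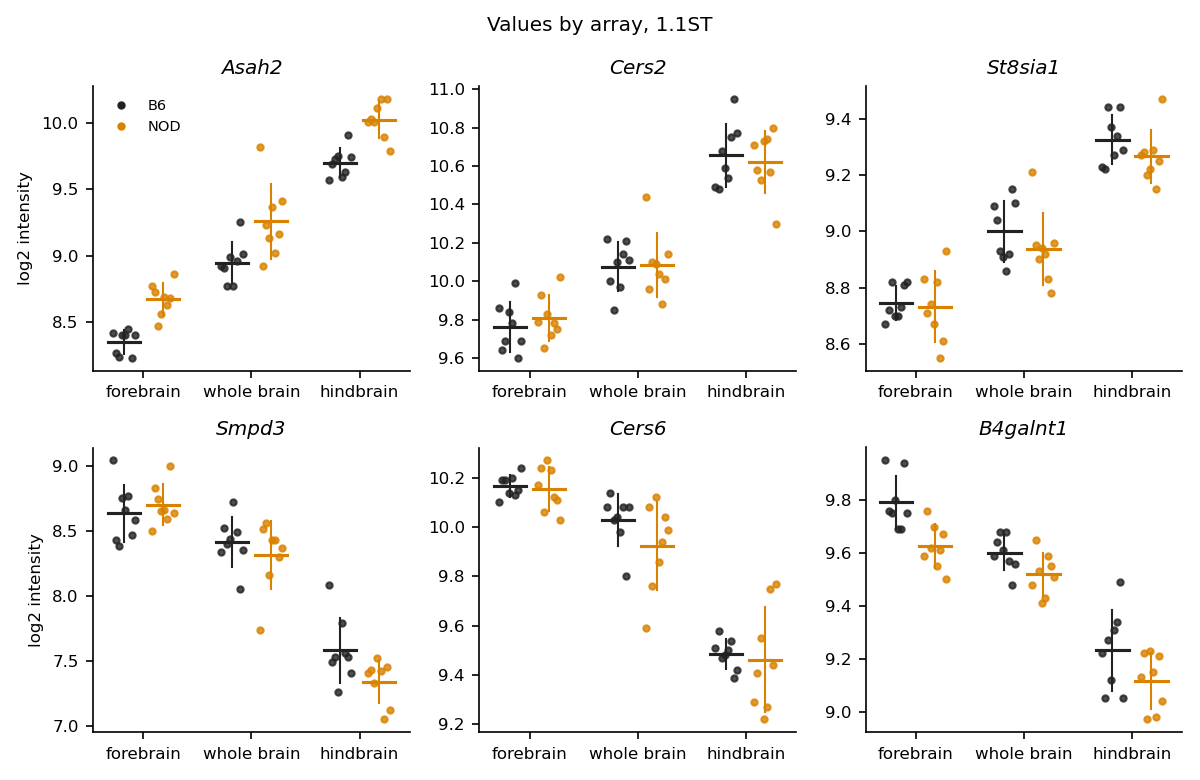
Log2 intensity on each 1.1ST array for 6 enzymes, by region and strain (8 mice per point group). Horizontal lines are means and vertical lines 1 SD. Asah2, Cers2 and St8sia1 step up from forebrain (medians 8.46, 9.78 and 8.72) to hindbrain (9.84, 10.63 and 9.28), and Smpd3, Cers6 and B4galnt1 step down, with whole brain in between.

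Most lysosomal enzymes differed little between the regions in the fit. Gm2a, the activator that presents ganglioside GM2 to hexosaminidase, was the exception, with 10.22 to 10.60 (median 10.40) in forebrain and 10.73 to 11.07 (median 10.94) in hindbrain, without overlap (log2 difference 0.40, SE 0.04). Asah1, acid ceramidase, and Glb1, the beta-galactosidase that acts on GM1, rose by 0.12 and 0.10, and neither was called on the 1.0ST arrays. Hexa, Galc, Smpd1, Neu1 and Psap, the precursor of the saposin activators, were not called, with log2 differences of -0.06 to 0.04. Psap ranged from 12.19 to 12.34 in forebrain and 12.21 to 12.34 in hindbrain.

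Outside the lysosome, Smpd2 and Smpd3, the neutral sphingomyelinases among the 36 members, were called in opposite directions. Smpd3, neutral sphingomyelinase 2, was 8.38 to 9.04 (median 8.66) in forebrain, 7.74 to 8.72 (median 8.42) in whole brain and 7.05 to 8.08 (median 7.44) in hindbrain. All hindbrain arrays lay below all forebrain arrays (log2 difference -1.01, SE 0.09, FDR 1.39e-13), a 2.012-fold lower level. Smpd2, neutral sphingomyelinase 1, rose by 0.34 (SE 0.05) and did not overlap between the regions either. The alkaline ceramidase of the Golgi, Acer2, was 6.86 to 7.98 (median 7.55) in forebrain and 7.30 to 8.62 (median 8.25) in hindbrain (0.52, SE 0.08, FDR 7.87e-07), higher in 16 of 16 mice although the ranges overlapped. Acer3, another alkaline ceramidase, rose by 0.30 (SE 0.04). Of the enzymes of sphingosine 1-phosphate, Sgpl1, the lyase, rose by 0.14, Sphk1, a kinase, by 0.14 in the fit but in only 8 of 16 mice, and Sphk2, the other kinase, was not called (-0.01).

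In all, 11 of 36 members (30.6%) had no overlap between the 16 hindbrain and 16 forebrain arrays, against 9.04% of all clusters, and 18 members moved the same way in 16 of 16 mice, against 20.2% of clusters. The 7 that lay higher in hindbrain were Sptlc2, Cers2, Cerk, St8sia1, Gm2a, Asah2 and Smpd2, and the 4 that lay lower were Cers6, B4galnt1, St3gal5 and Smpd3. Under the 29 alternative settings run for this comparison, 17 of the 27 calls held in every one. When each array was centred on its median, the split of calls over all clusters changed from 7778 higher and 5576 lower (58.2% higher) to 6701 and 9849 (40.5%), and that of the members from 20 and 7 to 19 and 10. The array medians themselves were higher by 0.07 in hindbrain, so a difference of that size depends on the scaling.

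Other genes of sphingolipid metabolism were called in both directions too. Of 37 such genes measured (of 40 listed), 17 rose and 8 fell in hindbrain (median 0.06). That is 67.6% called, against 47.2% of all clusters. The highest differences were those of Sptssb, a small subunit of serine palmitoyltransferase (1.31, SE 0.10), Sgpp2, a phosphatase of sphingosine 1-phosphate (1.11, SE 0.07), S1pr5, a receptor of sphingosine 1-phosphate known from oligodendrocytes (0.96, SE 0.09), and Fa2h, which hydroxylates the fatty acids of myelin lipids (0.95, SE 0.08). Sgpp2 went from 8.21 to 8.91 in forebrain to 9.65 to 10.19 in hindbrain. The largest falls were in Neu2, a cytosolic sialidase (-1.20, SE 0.11), St6galnac5, a sialyltransferase of gangliosides (-1.02, SE 0.07), Smpdl3b, a relative of acid sphingomyelinase (-0.61, SE 0.12), and B4galt6, which makes lactosylceramide (-0.27, SE 0.03).

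Whole brain, an intact hemisphere that contains both forebrain and hindbrain, lay between the other samples. Its median fell between those of forebrain and hindbrain in 30 of 36 members, and the share over all clusters was not computed. Against forebrain, 16 members were called, 10 higher and 6 lower, in a comparison that called 14.4% of clusters, 8.48% higher and 5.89% lower. The median was 0.02 over the members and 0.00 over all clusters, and both comparisons share the forebrain arrays. No lysosomal member was called (-0.04 to 0.08). Whole brain values were 6.29 to 7.11 for Sgms2, 9.85 to 10.44 for Cers2, 7.30 to 8.21 for Acer2 and 6.55 to 7.23 for Gal3st1, overlapping the forebrain range in each. They were 9.54 to 10.12 for St8sia5, 9.41 to 9.68 for B4galnt1, 9.55 to 10.03 for St8sia3 and 9.60 to 9.95 for St3gal5, again with overlap. Asah2 was higher by 0.53 (SE 0.05, FDR 4.3e-10), followed by Sgms2 (0.25, SE 0.06, FDR 0.00387), Cers2 (0.25, SE 0.04, FDR 1.46e-05), Acer2 (0.20, SE 0.06, FDR 0.0198), Gal3st1 (0.18, SE 0.05, FDR 0.0107) and St8sia1 (0.17, SE 0.03, FDR 0.000149). Lower were Smpd3 (-0.24, SE 0.06, FDR 0.00607), St8sia5 (-0.17, SE 0.06, FDR 0.0277), Cers6 (-0.16, SE 0.03, FDR 0.000752), B4galnt1 (-0.12, SE 0.03, FDR 0.00521), St8sia3 (-0.11, SE 0.04, FDR 0.0424) and St3gal5 (-0.11, SE 0.03, FDR 0.00349). The calls of Cerk (0.16), Sptlc2 (0.14), Smpd2 (0.12) and Acer3 (0.10) were smaller. Within mice, 8 members (Asah2, Cers2, Sgms2, Gal3st1, St8sia1, Cers6, Cerk and Sptlc2) moved the same way in 16 of 16, against 1.88% of clusters.

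Many of these calls were lost without 1 array. When the forebrain array of mouse DD676 was left out, 3.41% of clusters were called, and 4 of the 16 members remained: Asah2 (0.42), Cers2 (0.16), B4galnt1 (-0.12) and St8sia1 (0.12). The other 12 kept their direction with smaller differences, among them Sgms2 (0.14), Gal3st1 (0.12), Sptlc2 (0.10), Cerk (0.09), Cers6 (-0.08) and Smpd3 (-0.15). Only Asah2 and B4galnt1 were called on the 1.0ST arrays, where 1.65% of clusters were, and the same pair held under each of the 29 alternatives. Centring the arrays changed the split over all clusters from 59.0% to 41.2% higher. Of the other 37 sphingolipid genes, 9 were higher and 2 lower in whole brain (29.7% called, against 14.4% of clusters). Sptssb (0.58) and Sgpp2 (0.47) led those that were higher. St6galnac5 (-0.16) and Smpd4 (-0.15), a neutral sphingomyelinase, were the ones that were lower. Oligodendrocyte markers were higher in 12 of 12 (median 0.31), and their part was not tested.

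The strains differed in a smaller set of enzymes, and largely in the same direction in each region. Between NOD and B6, 13 members were called in forebrain, 7 higher and 6 lower in NOD, where 17.7% of clusters were called (8.98% higher and 8.76% lower). In hindbrain 16 were called, 11 higher and 5 lower, against 20.4% of clusters (11.8% higher and 8.69% lower). In whole brain 14 were called, 8 higher and 6 lower, against 18.0% of clusters (9.27% higher and 8.7% lower). The median over the members was 0.01, 0.00 and -0.00 in these regions, and over all clusters 0.01, 0.02 and 0.01. Of the members, 9 were called the same way in all 3 regions, against 8.85% of clusters: Ugcg, Asah2, Cers5, Degs1 and Cerk were higher and Smpd1, Asah1, Neu1 and Sptlc2 lower in NOD. No member was called in opposite directions in different regions, and 16 members were called in none. On the 1.0ST arrays, which called 21.2%, 23.9% and 18.8% of clusters in forebrain, hindbrain and whole brain, 12, 14 and 11 of the calls were repeated.

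**Figure D3:**
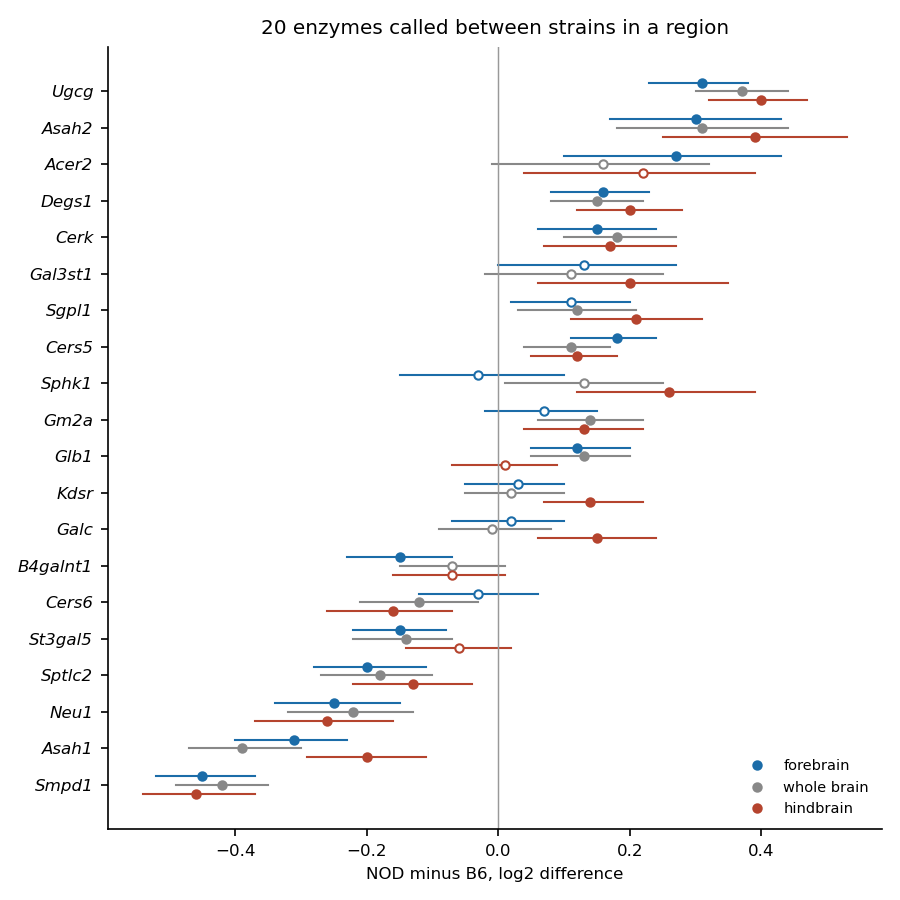
Log2 difference of NOD minus B6 in each region for the 20 enzymes called in at least 1 region. Points are limma estimates on the 1.1ST arrays with 95% confidence intervals (n = 8 mice per strain), filled where the FDR is below 0.05. Ugcg (0.31 to 0.40) heads the enzymes that were higher in NOD, and Smpd1 (-0.46 to -0.42), Asah1 and Neu1 lie at the other end.

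The lysosomal hydrolases Smpd1, Asah1 and Neu1 were lower in NOD. Smpd1, acid sphingomyelinase, was 10.96 to 11.10 (median 11.04) in the 8 B6 forebrains and 10.44 to 10.74 (median 10.58) in the 8 NOD forebrains. In hindbrain it was 11.04 to 11.25 in B6 and 10.57 to 10.73 in NOD, and in whole brain 10.92 to 11.14 and 10.46 to 10.77. No NOD array overlapped a B6 array in any of the 3 regions, as for 1.73% of clusters, and the log2 differences were -0.45 (SE 0.04, FDR 1.36e-12), -0.46 (SE 0.04, FDR 5.11e-12) and -0.42 (SE 0.04, FDR 3.77e-12) in forebrain, hindbrain and whole brain. The 1.0ST arrays gave -0.45, -0.36 and -0.41.

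The window upstream of Smpd1 is shown because this gene gave the clearest difference between the strains. It is the reference sequence of C57BL/6J (RefSeq, GRCm38.p6, plus strand, chr7:105554110-105554359), with its 4 GC boxes in capitals, and no sequence of NOD was used.
Smpd1: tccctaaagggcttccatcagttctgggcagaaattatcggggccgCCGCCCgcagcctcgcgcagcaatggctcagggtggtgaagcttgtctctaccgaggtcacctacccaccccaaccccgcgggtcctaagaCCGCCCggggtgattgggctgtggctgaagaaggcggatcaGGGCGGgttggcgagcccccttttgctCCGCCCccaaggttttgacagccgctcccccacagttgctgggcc
Probes were not masked for differences in sequence between the strains, and their part in any strain difference was not tested.

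Asah1, acid ceramidase, acts on the ceramide that Smpd1 releases. It was 9.99 to 10.27 (median 10.16) in B6 forebrain and 9.75 to 10.01 (median 9.88) in NOD forebrain, with log2 differences of -0.31 (SE 0.04, FDR 1.32e-07) in forebrain, -0.20 (SE 0.05, FDR 0.000595) in hindbrain and -0.39 (SE 0.04, FDR 4.84e-10) in whole brain. The strains were separate in whole brain, as for 3.29% of clusters, where B6 was 10.14 to 10.39 and NOD 9.68 to 10.05, and overlapped in the other regions. Neu1, lysosomal sialidase, was 7.88 to 8.20 (median 7.97) in B6 forebrain and 7.58 to 8.05 (median 7.72) in NOD forebrain, with differences of -0.25 (SE 0.05, FDR 0.000172), -0.26 (SE 0.05, FDR 0.000158) and -0.22 (SE 0.05, FDR 0.00041) in forebrain, hindbrain and whole brain. Its strains were separate in hindbrain (B6 8.00 to 8.41, NOD 7.71 to 7.99), and the highest NOD forebrain value came from mouse DD678. The rest of the lysosomal group did not move with them: Gm2a was higher in NOD hindbrain (0.13, SE 0.05, FDR 0.0241) and whole brain (0.14, SE 0.04, FDR 0.01), Glb1 in forebrain (0.12, SE 0.04, FDR 0.0148) and whole brain (0.13, SE 0.04, FDR 0.0102) and Galc in hindbrain (0.15, SE 0.05, FDR 0.0145), while Hexa and Psap were called in no region.

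Ugcg was the enzyme with the largest rise in NOD. It was 9.53 to 9.91 (median 9.74) in B6 forebrain and 9.99 to 10.18 (median 10.07) in NOD forebrain, and 9.63 to 9.77 (median 9.75) and 10.03 to 10.27 (median 10.14) in hindbrain. The strains did not overlap in these regions, as for 3.49% and 3.88% of clusters, and in whole brain 1 NOD value fell within the B6 range (B6 9.52 to 9.90, NOD 9.89 to 10.36). The log2 differences were 0.31 (SE 0.04, FDR 1.19e-08), 0.40 (SE 0.04, FDR 7.02e-11) and 0.37 (SE 0.04, FDR 5.1e-11) in forebrain, hindbrain and whole brain, and 0.29, 0.38 and 0.34 on the 1.0ST arrays. Later enzymes of the ganglioside pathway showed smaller differences of the opposite sign. St3gal5 was lower in NOD forebrain (-0.15, SE 0.04, FDR 0.00238) and whole brain (-0.14, SE 0.04, FDR 0.00262), and B4galnt1 in forebrain (-0.15, SE 0.04, FDR 0.0056). The 1.0ST arrays repeated neither the whole brain call of St3gal5 nor the call of B4galnt1 (-0.05). The 3 genes of the St8sia family and St3gal2 were called in no region.

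**Figure D4:**
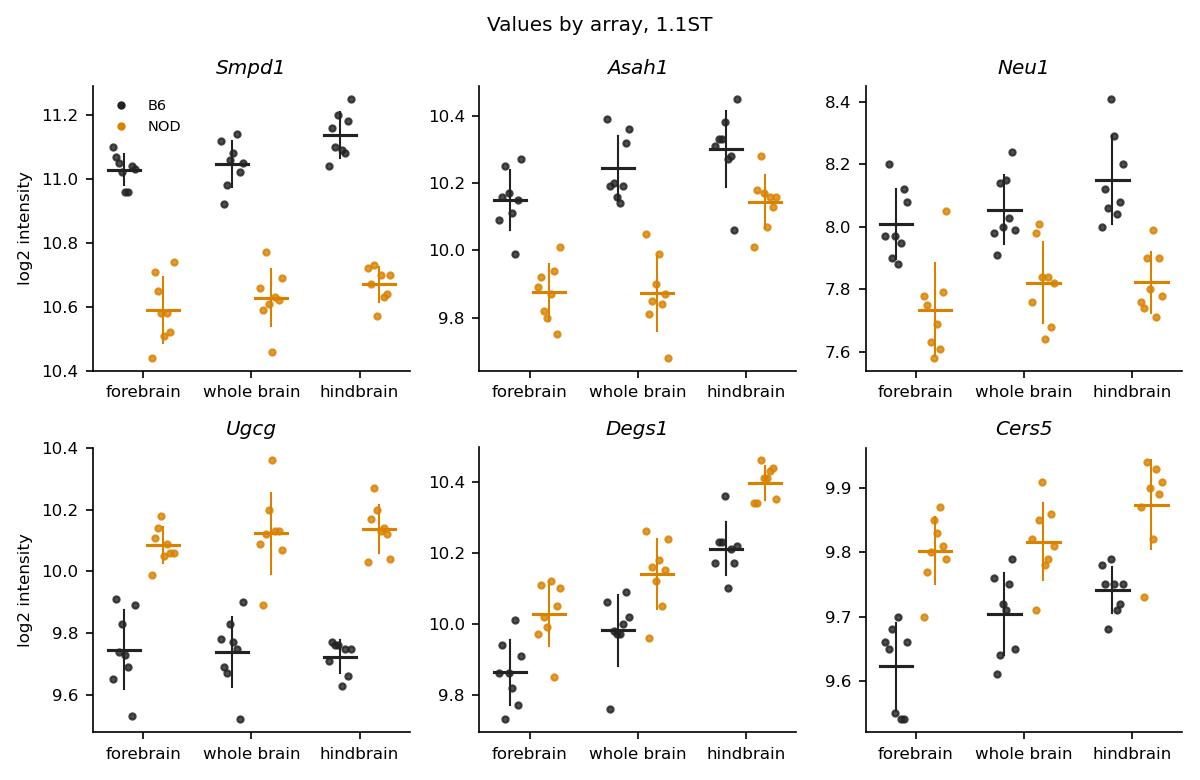
Log2 intensity on each 1.1ST array for 6 enzymes that were called between the strains in all 3 regions, by region and strain. Horizontal lines are means and vertical lines 1 SD over 8 mice. The NOD arrays of Smpd1 lie below all B6 arrays in each region (10.44 to 10.77 against 10.92 to 11.25), and those of Ugcg lie above the B6 arrays except for 1 value in whole brain.

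Asah2 was higher in NOD as well as in hindbrain. In forebrain it was 8.23 to 8.45 (median 8.40) in B6 and 8.47 to 8.86 (median 8.69) in NOD, without overlap, and in hindbrain 9.57 to 9.91 (median 9.71) and 9.79 to 10.18 (median 10.02). Its log2 differences were 0.30 (SE 0.07, FDR 0.000786), 0.39 (SE 0.07, FDR 4.81e-05) and 0.31 (SE 0.07, FDR 0.000365) in forebrain, hindbrain and whole brain. Its upstream window (RefSeq, GRCm38.p6, minus strand, chr19:32103141-32103390) is shown for contrast with those above. None of the 3 motifs lies in this window, and 47.2% of its bases are G or C, against 74.8% for Cers2. The first windows of Sgms2, Cerk, Gal3st1, Psap and Sphk1 also held none of the 3, so this is not particular to Asah2.
Asah2: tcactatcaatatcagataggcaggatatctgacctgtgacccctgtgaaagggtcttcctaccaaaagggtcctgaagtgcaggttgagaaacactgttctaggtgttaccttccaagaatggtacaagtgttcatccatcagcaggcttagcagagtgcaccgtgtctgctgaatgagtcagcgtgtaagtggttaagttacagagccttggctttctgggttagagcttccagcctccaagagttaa
Acer2, the Golgi ceramidase, was called in forebrain (0.27, SE 0.08, FDR 0.0152, with overlapping ranges of 6.86 to 7.80 in B6 and 7.37 to 7.98 in NOD), and was not called in hindbrain (0.22) or whole brain (0.16). In hindbrain, Sphk1 was higher in NOD (0.26, SE 0.07, FDR 0.00397, B6 6.45 to 6.90 and NOD 6.57 to 7.11). Sgpl1 was higher there too (0.21, SE 0.05, FDR 0.000915, B6 8.41 to 8.69 and NOD 8.60 to 8.93) and in whole brain (0.12, SE 0.04, FDR 0.0407).

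In synthesis, Degs1, Cers5 and Cerk were higher and Sptlc2 lower in NOD. Degs1 was 9.73 to 10.01 in B6 forebrain and 9.85 to 10.12 in NOD forebrain, with differences of 0.16 (SE 0.04, FDR 0.00136), 0.20 (SE 0.04, FDR 0.000154) and 0.15 (SE 0.04, FDR 0.00163) in forebrain, hindbrain and whole brain. Cers5 was 9.54 to 9.70 in B6 forebrain and 9.70 to 9.87 in NOD forebrain (0.18, SE 0.03, FDR 3.98e-05), without overlap before rounding. Cerk was 8.58 to 8.86 and 8.82 to 9.00 (0.15, SE 0.05, FDR 0.0156). Sptlc2 was 9.40 to 9.74 in B6 forebrain and 9.19 to 9.57 in NOD forebrain (-0.20, SE 0.04, FDR 0.00067). Cers6 was lower in NOD hindbrain (-0.16, SE 0.05, FDR 0.00984), although the means differed by only -0.03, and whole brain (-0.12, SE 0.04, FDR 0.0358). These calls of Cers6 were lost in 10 of 29 alternatives in hindbrain (-0.19 to -0.03) and in 19 of 29 in whole brain (-0.17 to -0.05). Kdsr was higher in hindbrain (0.14, SE 0.04, FDR 0.00506). Gal3st1 was called higher in hindbrain (0.20, SE 0.07, FDR 0.0319), but the 1.0ST arrays gave -0.02 and 15 of 29 alternatives lost the call.

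Under the 29 alternatives, Smpd1, Asah1, Neu1 and Ugcg held their calls in every region. Some cell type lists also differed between the strains. Endothelial markers were lower in NOD forebrain in 4 of 9, including Slco1a4 (-0.75), with list means of 8.49 to 8.76 in B6 and 8.08 to 8.50 in NOD. Oligodendrocyte markers were higher in 3 of 12 in forebrain and 5 of 12 in hindbrain (median 0.13 in both), with overlapping list means (9.32 to 9.80 and 9.48 to 9.87 in forebrain). Microglial markers were higher in 3 and lower in 2 of 10 in forebrain (list means 7.79 to 8.02 and 7.78 to 8.01), and astrocyte markers in 2 and 3 of 10 (9.89 to 10.04 and 9.88 to 10.14). In hindbrain, where 20.4% of clusters were called, microglial markers were higher in 5 and lower in 2 of 10 (7.64 to 7.93 in B6 and 7.51 to 7.86 in NOD). These counts are of fitted calls, whereas the list means are unadjusted, with microglial medians of 7.78 in B6 and 7.75 in NOD. Of the general neuronal markers 5 were higher and 2 lower of 10 (11.28 to 11.47 and 11.31 to 11.48), and of the astrocyte markers 3 and 3 of 10 (10.19 to 10.36 and 10.23 to 10.42). Endothelial markers were lower in 3 of 9 there (8.77 to 9.13 and 8.52 to 8.93). The part of these lists in the strain differences was not tested. Of the other 37 sphingolipid genes, 3 were higher and 4 lower in NOD forebrain (18.9% called, against 17.7% of clusters). In hindbrain it was 10 and 3 (35.1%, against 20.4%), and in whole brain 4 and 1 (13.5%, against 18.0%). Cptp, a transfer protein of ceramide 1-phosphate, was higher in each (0.36, 0.36 and 0.46), as was Ugt8a, which makes galactosylceramide (0.25, 0.29 and 0.19), and S1pr1, a receptor of sphingosine 1-phosphate, was lower in each (-0.30, -0.51 and -0.33).

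The strain difference itself was compared between hindbrain and forebrain by an interaction term. By limma, 0 of 36 members were called, in a comparison that called 2.29% of clusters, and 7 members (19.4%) had an unadjusted p below 0.05, against 13.1% of clusters. The largest values were in Sphk1 (0.28, SE 0.09, FDR 0.083), Smpd3 (-0.26, SE 0.12, FDR 0.28) and St8sia3 (-0.19, SE 0.07, FDR 0.167). The count was also 0 on the 1.0ST arrays (3.04% of clusters called), with Benjamini-Hochberg adjustment (2.09%) and with a mixed model for each transcript (2.7%). St8sia3 was called under some settings. It passed without mouse DD675, DD676 or DD678 (-0.25, -0.24 and -0.24), without the forebrain array of DD676 alone (-0.24), and with all mice when only clusters with a mean above 5 were tested (-0.21, FDR 0.0408). Of the other sphingolipid genes, Gla, lysosomal alpha-galactosidase (0.26, SE 0.06, FDR 0.00797), and Gba2, a glucosylceramidase outside the lysosome (0.18, SE 0.04, FDR 0.00837), were called. They were the 2 called of 37 (5.41%, against 2.29% of clusters).

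Clozapine was followed by few differences in these genes. By limma 2 of 36 members were called, 1 higher and 1 lower, in a comparison that called 2.92% of clusters (1.04% higher and 1.89% lower). Of all calls 35.5% were higher after clozapine, or 46.8% once each array was centred on its median. With Benjamini-Hochberg adjustment (2.59% of clusters called) and on the 1.0ST arrays (3.03%), the 1 member called was Acer2. No member had separate mouse means in the 8 clozapine and 8 vehicle mice, as 0.0459% of clusters did. Acer2 was higher after clozapine. As a mean over the 3 arrays of a mouse, it was 7.70, 7.85, 7.94 and 8.05 in the 4 clozapine mice of B6 and 7.15, 7.62, 7.73 and 7.82 in the 4 vehicle mice. In NOD it was 8.02, 8.06, 8.07 and 8.11 after clozapine and 7.71, 7.74, 7.79 and 8.06 after vehicle. The clozapine mice had the higher mean in both strains, but the groups overlapped: the highest vehicle mouse lay above the lowest clozapine mouse in each strain. The fitted log2 difference was 0.31 (SE 0.05, FDR 0.000601), and 0.25 (FDR 0.000102) on the 1.0ST arrays.

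The same difference was tested on mouse means, since treatment was given to mice and not to arrays. The mean difference was 0.27 (0.30 in B6 and 0.24 in NOD, n = 8 mice per treatment), with a two-sided exact permutation p of 0.00571 over the 4900 exchanges of treatment within strains, the smallest possible being 0.00041. On the 1.0ST arrays it was 0.23, with an exact permutation p of 0.000816. Over all clusters, however, a fit on 1 mean per mouse gave Acer2 an FDR of 0.14 and a mixed model for each transcript an FDR of 0.135, and these called 0.0424% and 0.053% of clusters. By this exact test without adjustment, 4 of 36 members on the 1.1ST arrays had a p below 0.05, against 11% of clusters. On the 1.0ST arrays it was 8 of 36, against 8.7% of clusters.

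The difference in Acer2 means was positive in each region and strain. In forebrain the B6 values were 7.54, 7.55, 7.76 and 7.80 after clozapine and 6.86, 7.08, 7.29 and 7.49 after vehicle, without overlap. In hindbrain they were 7.93, 8.14, 8.27 and 8.43 after clozapine and 7.30, 8.04, 8.25 and 8.30 after vehicle, and the lowest vehicle value, of mouse BB686, stood apart. Without that mouse the fitted difference was 0.24, and with each mouse left out in turn it was 0.24 to 0.35, called each time. A second, dimmer cluster of Acer2 (mean 4.93) was not called (0.05). Among cell type lists, endothelial markers were called in 4 of 9 after clozapine, against 2.92% of clusters, and the other 7 lists had no call. Slco1a4 (-0.27), Tek (-0.22) and Flt1 (-0.10) were lower and Slc2a1 (0.16) higher. These calls come from the fit on all arrays, and no values on mouse means are given for these markers. A fit on 1 mean per mouse called 0.0424% of clusters. The part of the endothelial markers in the rise of Acer2 was not tested.

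**Figure D5:**
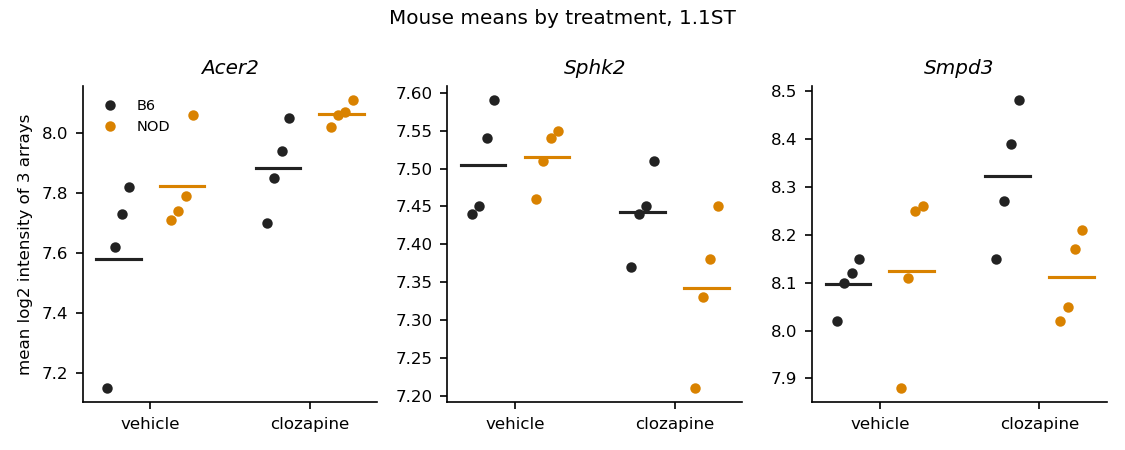
Mean log2 intensity over the 3 regions of each mouse for Acer2, Sphk2 and Smpd3, by treatment and strain (1.1ST arrays, 4 mice per group, lines are group means). Acer2 is higher after clozapine in both strains (differences of 0.30 and 0.24), Sphk2 differs by -0.06 in B6 and -0.17 in NOD, and Smpd3 by 0.23 in B6 and -0.01 in NOD.

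Sphk2, a sphingosine kinase, was lower after clozapine by a log2 difference of -0.09 (SE 0.03, FDR 0.0449). Mouse means were 7.21 to 7.51 (median 7.41) after clozapine and 7.44 to 7.59 (median 7.52) after vehicle, and the groups overlapped. The call was lost in 17 of 28 alternatives, among them the 1.0ST arrays (-0.04). On mouse means the difference in Sphk2 was -0.12, with an exact permutation p of 0.00571. On the 1.0ST arrays it was -0.05, with an exact permutation p of 0.0245. Over all clusters, the fit on 1 mean per mouse gave Sphk2 an FDR of 0.178. Smpd3 was not called (0.17, SE 0.05, FDR 0.0574), with overlapping mouse means of 8.02 to 8.48 after clozapine and 7.88 to 8.26 after vehicle. On mouse means it differed by 0.11, with an exact permutation p of 0.135. Its difference was 0.23 in B6 and -0.01 in NOD, and the difference between the strains was not tested. No member of synthesis, ganglioside assembly or lysosomal breakdown was called, with log2 differences of -0.07 to 0.07. Of the other sphingolipid genes, Spns2, which exports sphingosine 1-phosphate, was called higher (0.17, SE 0.04, FDR 0.0119). It was the 1 gene called of 37 (2.7%, against 2.92% of clusters). On mouse means the difference in Spns2 was 0.11 (0.07 in B6 and 0.15 in NOD), with an exact permutation p of 0.0645, and on the 1.0ST arrays 0.12, with an exact permutation p of 0.0143.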

How the data were processed

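Total RNA of 48 brain samples was hybridised to 2 formats (1.1ST and 1.0ST) of an Affymetrix mouse gene array. The authors made the deposited values, which are log2 intensities per transcript cluster, by RMA in Affymetrix Expression Console 1.1, each format apart from the other. Array medians were 6.28 to 6.61 (1.1ST) and 8.14 to 8.23 (1.0ST). The number of arrays, not counting depth, limits the precision. No probe was masked for strain differences in sequence. The genome build behind the clusters is not given in the sources used here.

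Of 28310 clusters, 21207 carried 1 symbol, 1867 several and 5236 none, with 99 symbols, none of a member, differing between the annotation tables. Groups came from the labels. In R 4.3.3, limma 3.58.1 fitted the means of the 6 strain and region groups, treatment and 5 surrogate variables, each refined on 1000 clusters, with mouse as a random block. The mouse named in the labels pairs the samples: residuals of the same mouse correlated by 0.0539 on average (-0.302 to 0.291), those of different mice by -0.0239, and the consensus correlation was 0.031. The FDR used an estimate of true nulls from p-values above 0.5, and calls were made below 0.05. Alternatives included lme4 1.1.37 and lmerTest 3.1.3 mixed models, no surrogate variables, Benjamini-Hochberg adjustment, a mean above 5, centring and left-out mice. The script was tested on simulated data.

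Members and lists were chosen with earlier results of these data known. Per comparison, up to 6 called members in each direction, by size of difference, are given with values, SE and FDR, other called members by their difference and the rest by count and range. Of other sphingolipid genes up to 4 per direction are named, and of marker lists up to 3.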

Additional observations from a re-analysis of the deposited data

Results flagged for a closer look

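Within each strain and region, the highest and lowest of 8 arrays were tested for standing apart from the rest (Dixon's 95% criterion). Among the 216 groups of values for the 36 enzymes, 27 held such a value, from 10 mice, where chance gives about 1 in 20 groups. None was explained or left out on this ground.

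Mouse DD676 (NOD) gave 4 low values, all in forebrain: Sptlc1 at 8.80 (next array 9.02), Cers4 at 8.95 (9.17), Psap at 12.19 (12.26) and Sphk2 at 7.09 (7.37). This is the array with the lowest median of all. In mouse DD656 (NOD), 3 whole brain values stood apart, Cers2 at 10.44 (10.14) and St8sia1 at 9.21 (8.96) above the rest and St8sia3 at 9.55 (9.92) below. That array also had the lowest telencephalic and the highest oligodendrocyte marker level of its region. Mouse DD678 (NOD) was highest in hindbrain for St3gal2 at 8.97 (8.70) and St8sia1 at 9.47 (9.29), and in forebrain for Neu1 at 8.05 (7.79). In mouse DD658 (NOD), Cers4 was lowest in hindbrain at 9.22 (9.37) and Hexa highest in whole brain at 8.90 (8.67), and in mouse DD657 (NOD) Acer3 was lowest in whole brain at 7.21 (7.45).

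Mouse BB707 (B6) stood apart most often. Its values were low in whole brain for Cers6 at 9.80 (9.98) and St8sia3 at 9.65 (9.84), in hindbrain for Asah1 at 10.06 (10.27) and Hexa at 8.45 (8.60), and in forebrain for Acer3 at 6.86 (7.16). They were high in whole brain for Sgms1 at 9.61 (9.47) and in forebrain for St3gal2 at 9.06 (8.92). In mouse BB703 (B6) forebrain, Sgms1 was highest at 9.51 (9.39) and St8sia5 lowest at 9.54 (9.92). In mouse BB687 (B6), Sgms2 was lowest in forebrain at 5.88 (6.15) and St8sia5 highest in whole brain at 10.12 (9.91). Mouse BB686 (B6) was lowest for Degs1 in whole brain at 9.76 (9.97) and for Acer2 in hindbrain at 7.30 (7.93), and mouse BB701 (B6) for Galc in whole brain at 8.75 (8.89).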

How the results depend on the processing

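Between hindbrain and forebrain, 27 members were called, 21 to 28 with each mouse left out in turn and 18 to 32 under the other settings. The 21 were those without mouse DD676. Without the forebrain array of that mouse alone the count was 24, 17 higher and 7 lower in hindbrain. For whole brain against forebrain, 16 became 2 on the 1.0ST arrays, 3 for clusters with a mean above 5, 4 without the forebrain array of mouse DD676 (chosen after seeing the data) and 4 to 18 with mice left out, the lowest without DD676. Between the strains, leaving out mice gave 13 to 14 members in forebrain (13 at first), 14 to 17 in hindbrain (16) and 11 to 14 in whole brain (14). With vehicle mice only, hindbrain gave 10, and with the arrays of that region alone, whole brain gave 7. For the interaction, 0 became 1 with a mean above 5, 2 without the forebrain array of DD676 and 0 to 4 with mice left out, the highest without DD675. For clozapine, 2 became 1 with Benjamini-Hochberg adjustment, on the 1.0ST arrays, with a mean above 5, with centring, and without the whole brain array of DD656 or the forebrain arrays of DD676 or DD678 (the last also chosen after seeing the data). It became 0 with 1 mean per mouse and with mixed models, and 1 to 3 with mice left out. Without the replicate block the member counts were 27, 16, 13, 16, 14, 0 and 3 in the order above, and with mouse as a fixed replicate block 26, 13 and 0 for the contrasts within mice. Signs reversed for Ugcg in hindbrain after centring (-0.06), and on the 1.0ST arrays for Sphk1 in hindbrain (-0.00), Smpd2 in whole brain (-0.03), Gal3st1 between strains in hindbrain (-0.02) and Sptlc1 between strains in whole brain (0.08). The cause was not tested. Over all clusters, calls in hindbrain were 13354, but 5469 on the 1.0ST arrays and 20376 with surrogate variables from the residuals, and in whole brain 4068, but 466, 8883 and, after centring, 6591. Without surrogate variables the strain calls were 3315 in forebrain against 5022 and 3034 in whole brain against 5086. Interaction calls were 647, but 313 without surrogate variables and 1193 with those from the residuals. Clozapine calls were 828, but 2286 with surrogate variables from the residuals, 12 with 1 mean per mouse and 15 with mixed models. Dim clusters, such as those of Degs2 and Sgms2, limit what can be read from small differences.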
